A study of Rattus norvegicus with 12 samples.

Results

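The genes described here encode the SR proteins and the hnRNPs of rat heart. They are the protein-coding genes of the deposited expression table whose symbol starts with Srsf or Hnrnp followed by a digit or letter, 30 genes of 16898, with 11 Srsf genes and 19 Hnrnp genes. Heart tissue of Sprague Dawley rats was taken at 2 ages after birth and gave 12 samples. In 6 of them RNA that carries N6-methyladenosine (m6A, a methylated adenosine) was enriched with an antibody, and the other 6 are input RNA, which measures transcript levels. The table has columns for the 6 input libraries, 3 of the older age and 3 of day 0, and the pull-down samples were not analysed here. The older hearts are labelled postnatal day 7, while the column headers read 10D, so no exact age is claimed for them. The comparison asks how far transcript levels differ between older and newborn hearts, and none of the labels names a treatment or a genetic change. Library totals ran from 13489816 to 16297533 reads. Levels are given in FPKM, the number of reads scaled by gene length and library total, so they can be compared between genes. Day 0 replicate 3 stands apart in genes of other tissues. All 4 lung markers were listed at 0 in the other 5 libraries and summed to 39.9 FPKM in that library, and the 4 skeletal muscle markers summed to 136 FPKM there, against 1.13 to 6.05 FPKM in the other libraries. The part of those tissues in the results was not tested, and counts of members are also given without that library.

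SR proteins carry RNA recognition motifs and a tail rich in arginine-serine repeats. They bind enhancer sequences in exons, recruit the spliceosome to nearby splice sites, and their phosphorylation state governs where they sit in the cell. The hnRNPs are a looser group of nuclear RNA-binding proteins that coat nascent transcripts, often hold splice sites back, and also act in RNA export, stability and translation. Cardiac transcripts change their splicing pattern around birth. In mouse hearts the loss of single members such as Srsf1, Srsf10 or Hnrnpu disturbs the splicing of some transcripts. Hnrnpa2b1 and Hnrnpc proteins are also known as readers of m6A, either directly or through the RNA folding that the mark changes.

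Most SR protein and hnRNP genes had a lower mean level in older hearts than in day 0 hearts. On the log2(FPKM + 1) scale 27 of the 29 tested members had a negative log2 fold change (older minus day 0), against 58.6% of all tested genes. Of these, 11 fell at a limma adjusted p under 0.05 (8 hnRNP and 3 SR protein genes, 37.9% of the tested members), where 5.73% of all 13117 tested genes were called lower. None of the 29 was called higher, where 3.52% of all genes were. At an unadjusted p under 0.05 limma found 18 members lower (16.4% of all genes). By voom on the recovered reads 8 members were lower (5.31% of all genes) and 0 higher (7.3%). A gene was tested if its level averaged 1 FPKM or more, which left out Srsf12. The largest fall of a called member was that of Hnrnpa1 (-0.90), and the smallest was that of Hnrnpm (-0.45). The labels do not say that the libraries came from separate animals, so the spread behind the p-values is that of these samples alone and may be technical.

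The 2 ages did not overlap in 19 of the 29 tested members, and in all 19 every older library was below every day 0 library. Over all tested genes 20.3% were lower without overlap and 12.2% were higher without overlap. The median log2 fold change was -0.37 for the SR protein genes and -0.49 for the hnRNP genes, beside -0.11 for all tested genes. With each library centred on its median gene, 4 members were called lower (3.54% of all genes), namely Hnrnpa1, Hnrnpk, Hnrnpdl and Hnrnpf. In that setting 0 members were called higher (4.7% of all genes). A negative value was seen in 25 of 29, where the median of all tested genes was 0.01. With 1 library left out the count of 11 members was 2 to 9, and the share of all genes called lower moved as well. It was 9 members without day 0 replicate 3 (5.59% of all genes), 7 without older replicate 1 (2.54%), and 4 without day 0 replicate 1 (2.77%) or 2 (2.47%). Without older replicate 2 (2.03%) or 3 (2.33%) it was 2 members, Hnrnpa1 and Hnrnpk each time. Without limma's trend of variance on level Hnrnpa1 was the 1 member called (2.82% of all genes), and among genes of at least 5 FPKM 13 members were called (9.42%).

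Transcripts of the mitochondrial genome's protein genes held 10.5% to 12.03% of reads in older hearts and 7.20% to 8.99% in day 0 hearts. With each library scaled to its other reads, an alternative added after seeing the data, 7 members were called lower (4.62% of all genes). Fibroblast markers were higher in older hearts (6 of 8 called, summed level 1966 to 2132 FPKM against 798 to 1187 FPKM at day 0). Of 8 cardiomyocyte markers 1 was called higher and 1 lower, and their summed level was 22602 to 25674 FPKM in older hearts against 23554 to 24910 FPKM in day 0 hearts. Of 7 endothelial markers found 2 were called higher (summed level 330.3 to 356 FPKM in older hearts against 239 to 271 FPKM at day 0). Of 7 smooth muscle and pericyte markers 2 were called lower, Cnn1 (-2.91) and Acta2 (-1.68), and 1 higher, Rgs5 (1.85), with a summed level of 234 to 253 FPKM in older hearts against 247 to 330.4 FPKM at day 0. In bulk tissue fewer cells of a type and less RNA per cell cannot be told apart, and the part of cell makeup in the values below was not tested.

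**Figure D1:**
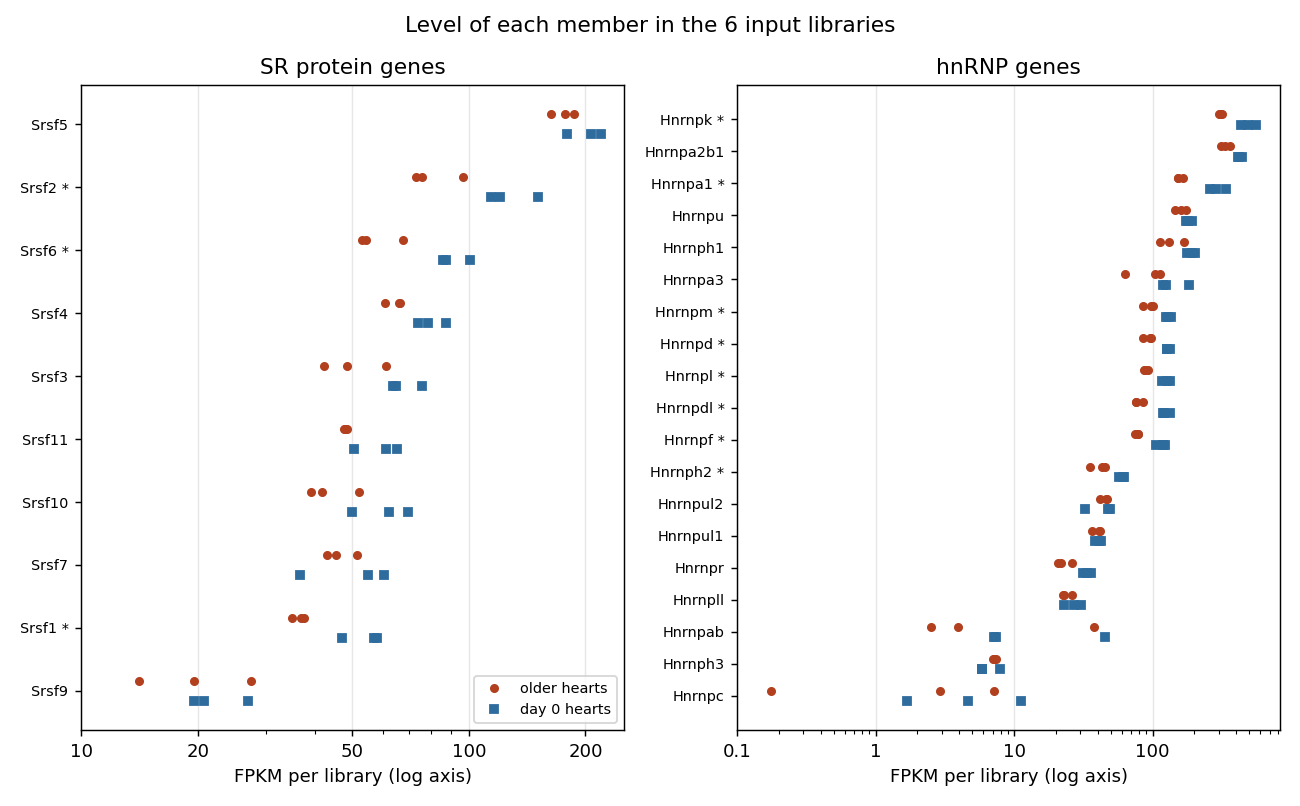
FPKM of each of the 29 tested members in each input library on a log axis, with older hearts as circles above day 0 hearts as squares, and genes ordered by mean. An asterisk marks the 11 members with a limma adjusted p under 0.05, and in each of these the 3 older libraries lie below the 3 day 0 libraries.

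The levels of the members spanned a wide range. Hnrnpk was highest on average at 402 FPKM over the 6 libraries, followed by Hnrnpa2b1 at 381 FPKM and Hnrnpa1 at 226 FPKM. Hnrnpk and Hnrnpa2b1 changed places between the ages: Hnrnpa2b1 stood first in older hearts and Hnrnpk first in day 0 hearts, with a gap in means smaller than the sum of their SDs at either age. The highest SR protein gene was Srsf5 at 189 FPKM, ahead of Srsf2 at 105 FPKM and Srsf6 at 74.9 FPKM. Between Hnrnpa3 (117 FPKM) and Hnrnpf (96.7 FPKM) lay 5 other members whose neighbours in the order differed by less than the sum of their SDs at both ages. At the low end stood Hnrnph3 (6.87 FPKM), Hnrnpc (4.65 FPKM) and Srsf12 (0.0945 FPKM).

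Promoter sequences are shown for the 2 called members of each family with the largest falls among those whose window was used. RefSeq windows from 250 bases before to 50 bases after a transcript start on rat build GRCr8 were found for 29 of the 30 members (not for Hnrnpll), and those of 22 members lay within 1000 bases of the outermost start of the gene and were used. That of Hnrnpk, which fell more than Hnrnpdl, lay farther inside its gene and is not shown. The lines give the 200 bases before the start (for Hnrnpdl, the first of 2 starts listed), read 5′ to 3′ on the strand of the gene. Capitals mark CCAAT (or ATTGG on the other strand), the box bound by NF-Y, and GGGCGG (or CCGCCC), the GC box bound by Sp1 and its relatives.
Hnrnpa1, chr7:136253918-136254117, plus strand: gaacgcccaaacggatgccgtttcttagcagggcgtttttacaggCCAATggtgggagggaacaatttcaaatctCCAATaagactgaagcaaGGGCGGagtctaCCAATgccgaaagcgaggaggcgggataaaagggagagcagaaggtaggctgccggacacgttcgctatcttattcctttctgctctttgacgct
Hnrnpdl, chr14:9861516-9861715, plus strand: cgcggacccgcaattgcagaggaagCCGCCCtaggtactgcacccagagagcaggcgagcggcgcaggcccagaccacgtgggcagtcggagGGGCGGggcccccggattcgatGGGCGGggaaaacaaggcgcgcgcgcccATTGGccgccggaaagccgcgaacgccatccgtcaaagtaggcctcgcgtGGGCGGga
Srsf2, chr10:102554142-102554341, minus strand: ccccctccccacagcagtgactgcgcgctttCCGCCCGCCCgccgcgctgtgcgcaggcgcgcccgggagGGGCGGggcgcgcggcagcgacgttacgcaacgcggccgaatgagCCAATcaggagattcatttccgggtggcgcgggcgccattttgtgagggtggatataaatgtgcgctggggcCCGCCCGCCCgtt
Srsf6, chr3:172008872-172009071, plus strand: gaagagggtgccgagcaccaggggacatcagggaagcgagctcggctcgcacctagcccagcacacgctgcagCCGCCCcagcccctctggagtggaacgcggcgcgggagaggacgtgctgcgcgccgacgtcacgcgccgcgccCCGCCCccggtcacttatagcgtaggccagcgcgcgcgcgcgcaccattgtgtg
The Hnrnpa1 stretch holds 3 CCAAT matches and 1 GGGCGG match, that of Hnrnpdl 1 and 4, that of Srsf2 1 and 5 with overlapping copies counted apart, and that of Srsf6 0 and 2, and no match of one motif overlaps one of the other. The CCAAT match nearest to the start begins 95 bases before the start in Hnrnpa1, 58 in Hnrnpdl and 85 in Srsf2.

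Searched on both strands over the whole windows were 12 motifs. Beside CCAAT and the GC box GGGCGG they were the TATA box (TATAAA), the ETS site (CCGGAAG), the YY1 site (AAGATGG), the E-box (CACGTG), the cAMP response element (TGACGTNA), the E2F site (TTTCCCGC) and a pyrimidine run (CTTTTT). The 3 longer ones are the NRF1 site, a looser pattern, and the extended YY1 site, which contains AAGATGG. The looser pattern is the NRF1 site with any letters at its centre, so runs of alternating G and C also match it. The 2 motifs marked in the lines, the limit of 1000 bases and the 4 genes shown were chosen after sequences and values had been seen, so the shares below are descriptions without a test. CCAAT occurred in 16 of the 22 members (72.7%), against 39.2% of 7289 tested genes and 37.9% of all 28327 windows used. Without the limit on the start it occurred in 20 of 29 members (69.0%), against 39.2% of 8901 tested genes. It was present in 7 of the 8 called members and in 9 of the 14 others among the 22 within the limit. GGGCGG occurred in 17 of 22 members (77.3%), against 67.3% of tested genes and 33.6% of all windows.

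Of the other 10 motifs, the looser pattern was found in 12 of the 22 members (54.5%). Its share was 14.8% of tested genes and 5.81% of all windows. No member window held the NRF1 site itself, so these matches are not counted as NRF1 sites. TATAAA was found in 5 members (22.7%), against 6.41% of tested genes and 14.3% of all windows. CACGTG was found in 4 members (18.2%), against 9.80% and 6.50%, and CCGGAAG also in 4 (18.2%), against 19.8% and 9.02%. CTTTTT was in 3 members, TGACGTNA in 2 and TTTCCCGC in 1, against 15.1%, 5.41% and 2.26% of tested genes and 22.3%, 3.35% and 0.971% of all windows. The strict NRF1 site, AAGATGG and the extended YY1 site were in none of the 22 windows, against 2.15%, 9.01% and 3.10% of tested genes and 0.890%, 7.12% and 1.02% of all windows. The median member had 31 CG dinucleotides in its richest window, against 22 for the tested genes. The part of this CG content in the share of the looser pattern was not tested. These matches describe the letters in the windows, and no binding was measured here.

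Among the SR protein genes the called members were Srsf2, Srsf6 and Srsf1. Srsf2 (SC35) encodes a protein of nuclear speckles. Its level was 96.5, 73.04 and 75.5 FPKM in older hearts, against 121, 151 and 114 FPKM in day 0 hearts. All 3 older libraries were below all day 0 libraries, with a mean of 81.7 ± 12.9 FPKM in older hearts and 128 ± 19.5 FPKM in day 0 hearts (SD, n = 3 each; log2 fold change -0.65, limma adjusted p = 0.0431). Srsf6, which promotes exon inclusion through exonic enhancers, stood at 67.7, 54.4 and 52.96 FPKM in older hearts, against 85.7, 87.6 and 101 FPKM in day 0 hearts. Its groups did not overlap and it fell by 0.64 on the log2 scale (limma adjusted p = 0.0268). Srsf1 (ASF/SF2), whose loss in mouse heart leaves Camk2d transcripts mis-spliced, was measured at 36.97, 37.5 and 34.9 FPKM in older hearts, against 57.01, 57.995 and 46.98 FPKM in day 0 hearts. The older libraries lay close together and below day 0, and the fall was 0.55 on the log2 scale (limma adjusted p = 0.0364).

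None of the 3 SR protein calls held with every library left out in turn, by limma's adjusted p. That of Srsf1 was lost except without day 0 replicate 3 (0.0179 without it, 0.096 to 0.119 without any other). That of Srsf6 was kept without older replicate 1 (0.0318) and lost otherwise (0.0505 to 0.0981). For Srsf2 the call was kept without day 0 replicate 3 (0.0438) or older replicate 1 (0.046), and lost without any other (0.0855 to 0.137). After centring on the median gene the limma adjusted p was 0.0748 for Srsf1, 0.0736 for Srsf2 and 0.0577 for Srsf6.

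The other SR protein genes did not pass the threshold. Srsf3, the smallest classical SR protein and an adaptor of mRNA export, had 60.99, 48.6 and 42.3 FPKM in older hearts, against 63.8, 64.9 and 75.6 FPKM in day 0 hearts. These groups did not overlap, but the gap between the highest older and the lowest day 0 library was small (log2 fold change -0.43, 95% interval -0.79 to -0.07, limma adjusted p = 0.131). Srsf10, which in mouse heart governs splicing of the triadin transcript, was at 41.9, 39.1 and 52.1 FPKM in older hearts, against 69.5, 62.1 and 49.98 FPKM in day 0 hearts. Here older replicate 3 exceeded day 0 replicate 3, so the groups overlapped (log2 fold change -0.44, limma adjusted p = 0.147). Srsf5, the most abundant of the family, stood at 187, 163 and 177 FPKM in older hearts, against 207, 179 and 219.7 FPKM in day 0 hearts. Its ages overlapped, and the 95% interval of the log2 fold change ran from -0.45 to 0.06 (limma adjusted p = 0.317).

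Srsf4, a close relative of Srsf5 and Srsf6, averaged 64.4 ± 3.26 FPKM in older hearts and 79.96 ± 6.84 FPKM in day 0 hearts (SD, n = 3 each; log2 fold change -0.31, limma adjusted p = 0.126). Srsf11, first described as a splicing regulator that contacts U2 auxiliary factor, averaged 48.03 ± 0.409 FPKM in older hearts and 59.02 ± 7.69 FPKM in day 0 hearts (SD, n = 3 each; log2 fold change -0.28, limma adjusted p = 0.204). In both of these genes the ages did not overlap. Srsf7, a relative of Srsf3 with a zinc knuckle, averaged 46.8 ± 4.35 FPKM in older hearts and 50.8 ± 12.5 FPKM in day 0 hearts (SD, n = 3 each; log2 fold change -0.09, limma adjusted p = 0.813), and its sign turned positive after centring, after quantile normalization, in voom and without day 0 replicate 1. Srsf9, the closest relative of Srsf1, had 27.4, 14.1 and 19.6 FPKM in older hearts, against 20.7, 26.9 and 19.6 FPKM in day 0 hearts. Its older libraries spread across the whole day 0 range (log2 fold change -0.17, limma adjusted p = 0.711), and its 124 to 238 reads per library were the fewest of the tested SR protein genes. Srsf12 is known as an antagonist of other SR proteins. It had 0, 1 and 1 recovered reads in older hearts, against 7, 12 and 0 in day 0 hearts, too few for a test.

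**Figure D2:**
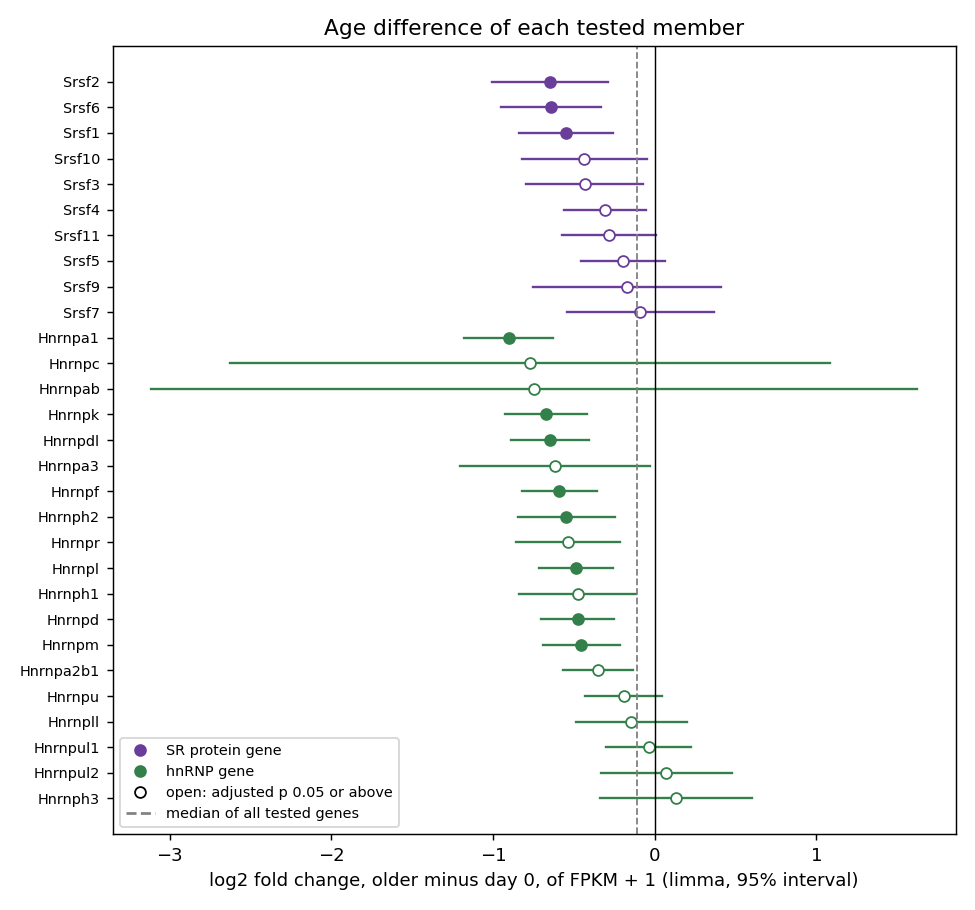
Log2 fold change (older minus day 0, of FPKM + 1) of the 10 tested SR protein genes and the 19 hnRNP genes with limma's 95% interval, filled where the adjusted p was under 0.05. The dashed line is the median of all tested genes at -0.11, and 25 of the 29 members lie to the left of it.

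In the A and B group of hnRNPs, Hnrnpa1 fell while its relatives did not pass. Hnrnpa1, a repressor of splice sites that counteracts Srsf1 protein, was at 152, 153 and 165 FPKM in older hearts, against 258, 339 and 289 FPKM in day 0 hearts. The highest older library was well below the lowest day 0 library, and the mean was 156 ± 7.02 FPKM in older hearts and 295 ± 40.9 FPKM in day 0 hearts (SD, n = 3 each; log2 fold change -0.90, SE 0.12, limma adjusted p = 0.00584). This call passed under every alternative tried, with limma adjusted p from 0.0124 to 0.0323 with 1 library left out, and 0.0383 without the trend. Hnrnpa2b1, the m6A reader of this group, stood at 361, 312 and 332 FPKM in older hearts, against 414, 420.1 and 446 FPKM in day 0 hearts. All older libraries were below day 0, yet the fall was smaller (-0.35, 95% interval -0.57 to -0.13) and missed the threshold (limma adjusted p = 0.0586). It was called with genes of at least 5 FPKM alone (limma adjusted p = 0.0479).

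Ratios of FPKM within a library were computed for 6 pairs of members, chosen after the values were seen. The ratio of Hnrnpa1 to Hnrnpa2b1 was 0.421, 0.489 and 0.496 in older hearts, against 0.623, 0.806 and 0.648 in day 0 hearts. All older ratios were below all day 0 ratios (two-sided exact permutation p = 0.1 on the log2 ratios, 0.3 adjusted over the 6 pairs), and 0.1 is the smallest p that 3 against 3 libraries can give, so no pair could pass. The ratio of Hnrnpa1 to Srsf1 was 4.11, 4.07 and 4.71 in older hearts, against 4.52, 5.84 and 6.15 in day 0 hearts, with overlap (exact permutation p = 0.2, adjusted 0.3). The ages also overlapped in the ratios of Srsf1 to Srsf5, Hnrnpa1 to Hnrnpk and Hnrnpf to Hnrnph1 (exact permutation p = 0.2, 0.3 and 0.6, adjusted 0.3, 0.36 and 0.6).

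Hnrnpa3, which binds the same kind of sites as Hnrnpa1 protein, had 112, 62.99 and 103 FPKM in older hearts, against 182, 119 and 124 FPKM in day 0 hearts. The ages just failed to overlap and the libraries of each age were far apart (log2 fold change -0.62, limma adjusted p = 0.173). Hnrnpab was at 37.9, 3.902 and 2.51 FPKM in older hearts, against 45.4, 7.12 and 7.36 FPKM in day 0 hearts. Replicate 1 of each age was far above the other libraries of its age, with 958 and 1057 reads against 60 to 191 reads elsewhere, and the age difference was small beside that spread (limma adjusted p = 0.689, 95% interval -3.11 to 1.62).

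Hnrnpc, which packages nascent transcripts and reads m6A through changes in RNA folding, was listed at 2.89, 0.174 and 7.195 FPKM in older hearts, against 4.68, 11.3 and 1.68 FPKM in day 0 hearts. From 5 to 271 reads lay behind these values, the ages overlapped widely and the 95% interval of the log2 fold change was -2.63 to 1.08 (limma adjusted p = 0.587). Genes of this family have near-identical copies elsewhere in mammalian genomes, and how reads that match several places were counted is not given in the sources used here. The part of such copies in the level of any member was not tested.

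Hnrnpd and Hnrnpdl both fell. Hnrnpdl was at 85.5, 75.8 and 76.1 FPKM in older hearts, against 119, 120.0 and 134 FPKM in day 0 hearts. Its groups were well apart (log2 fold change -0.65, limma adjusted p = 0.0119), and the call held after centring and missed the threshold without older replicate 2 (limma adjusted p = 0.0544) or 3 (0.0529). Hnrnpd (AUF1), which steers the decay of transcripts with AU-rich elements, stood at 85.6, 96.9 and 95.8 FPKM in older hearts, against 128, 134 and 127 FPKM in day 0 hearts. The older libraries were all lower (log2 fold change -0.48, limma adjusted p = 0.0245), but the call was kept without day 0 replicate 3 alone (0.0352) and lost without any other library (limma adjusted p 0.0685 to 0.0839). Centring gave it a limma adjusted p of 0.066 and voom 0.054.

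The F and H group, whose proteins bind runs of guanines, was mixed. Hnrnpf had 77.9, 74.6 and 77.98 FPKM in older hearts, against 123, 107 and 119.6 FPKM in day 0 hearts. The 3 older values were nearly equal and below day 0 (log2 fold change -0.59, limma adjusted p = 0.0138). That call held after centring and missed the threshold without day 0 replicate 1 (limma adjusted p = 0.0506), older replicate 2 (0.0594) or older replicate 3 (0.0529). Hnrnph2 was at 35.1, 43.4 and 45.1 FPKM in older hearts, against 57.5, 61.8 and 61.4 FPKM in day 0 hearts. It was called lower (log2 fold change -0.55, limma adjusted p = 0.0414), and leaving out any 1 library ended the call (0.0692 to 0.114). It was also lost after centring (limma adjusted p = 0.0913) and in voom (0.0819).

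Hnrnph1, the most abundant member of this group, averaged 138 ± 28.9 FPKM in older hearts and 189 ± 12.6 FPKM in day 0 hearts (SD, n = 3 each). No older library reached day 0, and the fit did not call it (log2 fold change -0.48, limma adjusted p = 0.101). It passed the threshold when older replicate 1 was left out. Hnrnph3 was at 7.42, 7.11 and 7.07 FPKM in older hearts, against 5.83, 7.92 and 5.89 FPKM in day 0 hearts. It was the member with the highest log2 fold change (0.13, 95% interval -0.34 to 0.60, limma adjusted p = 0.726), and the day 0 range enclosed the older values.

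Hnrnpk, a poly-cytosine binding protein that acts in transcription, splicing and translation, had the most reads of the family, 11832 to 23391 per library. It was at 302, 319 and 307 FPKM in older hearts, against 489.8, 437 and 560.0 FPKM in day 0 hearts. The older libraries agreed closely and the day 0 libraries were all higher and more spread (mean 309 ± 8.65 FPKM in older hearts and 496 ± 61.7 FPKM in day 0 hearts; SD, n = 3 each; log2 fold change -0.67, SE 0.11, limma adjusted p = 0.0126). The call held after centring, in voom and with each library left out, with the highest limma adjusted p, 0.0499, when older replicate 3 was left out.

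Hnrnpl, which binds CA repeats in introns and exons, stood at 88.4, 92.7 and 86.4 FPKM in older hearts, against 116, 134 and 127 FPKM in day 0 hearts. Its ages did not overlap (log2 fold change -0.49, limma adjusted p = 0.0249), and the call was kept without day 0 replicate 1 (0.0464) or 3 (0.0415) and lost without any other library (limma adjusted p 0.0729 to 0.0913), as after centring (0.0644). Its paralog Hnrnpll, known for exon exclusion in lymphocytes, averaged 23.97 ± 1.997 FPKM in older hearts and 26.7 ± 3.63 FPKM in day 0 hearts (SD, n = 3 each; log2 fold change -0.14, limma adjusted p = 0.585). The ratio of Hnrnpl to Hnrnpll, the last of the 6 pairs, was 3.37, 4.104 and 3.75 in older hearts, against 4.301, 4.46 and 5.52 in day 0 hearts, without overlap (exact permutation p = 0.1, adjusted 0.3).

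Hnrnpm, a regulator of alternative exons, was at 97.6, 85.5 and 101 FPKM in older hearts, against 129, 135 and 126 FPKM in day 0 hearts. It was the called member with the smallest change (log2 fold change -0.45, limma adjusted p = 0.0364), kept without day 0 replicate 3 (0.0463) and lost without any other library (0.0741 to 0.114), after centring (0.086) and in voom (0.0587). Hnrnpr, which in neurons carries actin transcripts, had 26.1, 20.8 and 21.7 FPKM in older hearts, against 31.3, 35.9 and 33.5 FPKM in day 0 hearts. Its ages were apart, and it missed the threshold (log2 fold change -0.54, limma adjusted p = 0.0531). Among genes of at least 5 FPKM it was called (limma adjusted p = 0.0393).

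Hnrnpu, a nuclear scaffold protein needed in mouse heart for normal splicing, was at 174, 159 and 145 FPKM in older hearts, against 174, 191 and 179 FPKM in day 0 hearts. The highest older and the lowest day 0 library were almost equal, and the log2 fold change was -0.19 (95% interval -0.43 to 0.05, limma adjusted p = 0.286). The related genes Hnrnpul1 and Hnrnpul2, which act in the response to DNA damage, had log2 fold changes of -0.04 (95% interval -0.30 to 0.23) and 0.07 (95% interval -0.33 to 0.48), and their ages overlapped. The sign of Hnrnpul1 turned positive after centring, after quantile normalization, in voom, when scaled to reads outside the mitochondrial genes and without older replicate 1. Relative to the median of all genes the last 2 stood at 0.07 and 0.18.

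Summed over the family, hnRNP transcripts took less of the RNA in older hearts. The 19 genes summed to 1923, 1730 and 1809 FPKM in older hearts, against 2569, 2579 and 2629 FPKM in day 0 hearts. The older sum was 0.702 times the day 0 sum. The 11 SR protein genes summed to 675, 584 and 621 FPKM in older hearts, against 820.4, 828 and 802 FPKM in day 0 hearts, a ratio of 0.768. All older sums were below all day 0 sums in both families, and the older libraries were the more spread. In reads, the 30 genes together held 0.477% to 0.524% of each older library and 0.684% to 0.703% of each day 0 library.

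**Figure D3:**
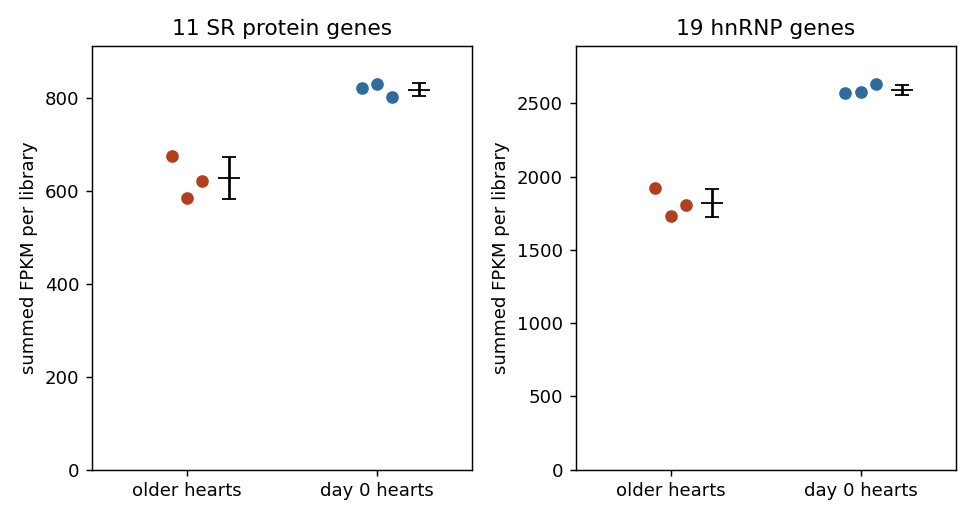
Summed FPKM of the 11 SR protein genes and of the 19 hnRNP genes in each input library, with the mean and SD of 3 libraries beside the points. The older libraries lie at 584 to 675 FPKM for SR protein genes and 1730 to 1923 FPKM for hnRNP genes, below the day 0 libraries in each family.

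The authors' deposited table gave the same direction for the members it called. By its adjusted p under 0.05, 10 of the 30 members were lower and 0 higher, where 5.53% of all genes were lower and 6.26% higher. All 10 were among the 11 called by limma, and the other one, Hnrnph2, had an adjusted p of 0.0785 in the authors' deposited table. Its log2 fold change was -0.80 for Hnrnpa1 and -0.56 for Hnrnpk, again in the authors' deposited table.

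Genes that work with these proteins were followed through 5 lists. RNA-binding proteins that are counted with the hnRNPs under other names were the first list: 9 of 37 tested were lower (24.3%, against 5.73% of all genes) and 0 higher, with a median log2 fold change of -0.45. Rbm3, a cold-inducible RNA-binding protein, was at 70.1, 54.01 and 57.9 FPKM in older hearts, against 164, 179 and 156 FPKM in day 0 hearts. Its older values were far below day 0 (log2 fold change -1.45, limma adjusted p = 0.0015). Syncrip (hnRNP Q) fell as well, with 26.97 ± 1.72 FPKM in older hearts and 50.004 ± 9.15 FPKM in day 0 hearts (SD, n = 3 each; log2 fold change -0.85, limma adjusted p = 0.0195). The poly-cytosine binding protein gene Pcbp4 (-0.89) was also called lower.

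Of 34 tested SR-related splicing factors 3 fell (8.82%, against 5.73% of all genes) and 0 rose, with a median of -0.18, beside -0.11 for all genes. These 3 were Snrnp70 (-0.65), a U1 particle protein, U2af1 (-0.57), which reads the end of the intron, and Tra2b (-0.50), an SR-like activator of exons. Tra2b was at 105, 90.02 and 98.3 FPKM in older hearts, against 145, 134 and 136 FPKM in day 0 hearts, without overlap (limma adjusted p = 0.0235). In the core spliceosome 3 of 48 tested genes fell and 1 rose (median -0.29), and the share that fell, 6.25%, was near the 5.73% of all genes. The branch point binding protein gene Sf1 (-0.53), the helicase gene Ddx39b (-0.60) and the U2 particle gene Sf3a1 (-0.57) were lower, and Prpf19 (0.53), a ubiquitin ligase of the spliceosome, was higher.

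The next list held 24 tested genes, mostly kinases, phosphatases and import factors of SR proteins, with Nxf1, Prmt1, Prmt5 and Carm1 among the rest. Of these 24 genes 2 fell (8.33%, against 5.73% of all genes) and 1 rose, with a median of -0.19. The phosphatase subunit gene Ppp1cc (-0.70) and the kinase gene Akt1 (-0.50) were lower, while the kinase gene Dyrk1b (0.90) was higher. No SR protein kinase of the Srpk or Clk families passed, although 2 came close without overlap between the ages. Clk1 averaged 127 ± 8.87 FPKM in older hearts and 82.9 ± 16.5 FPKM in day 0 hearts (SD, n = 3 each; log2 fold change 0.62, limma adjusted p = 0.052), and Srpk3 averaged 34.9 ± 5.51 FPKM in older hearts and 52.7 ± 6.43 FPKM in day 0 hearts (SD, n = 3 each; log2 fold change -0.59, limma adjusted p = 0.0565). Neither Ythdc1, the nuclear m6A reader whose protein binds Srsf3 and Srsf10 proteins, nor Ythdc2 passed, with Ythdc1 at 73.1 ± 7.41 FPKM in older hearts and 76.5 ± 0.651 FPKM in day 0 hearts (SD, n = 3 each; log2 fold change -0.07, limma adjusted p = 0.73). The call of Rbm3 passed with every library left out in turn, while those of Syncrip, Pcbp4 and Tra2b missed the threshold with at least 1 library left out. The 17 genes of the lists called lower became 3 to 19 with 1 library left out, and 6 after centring.

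**Figure D4:**
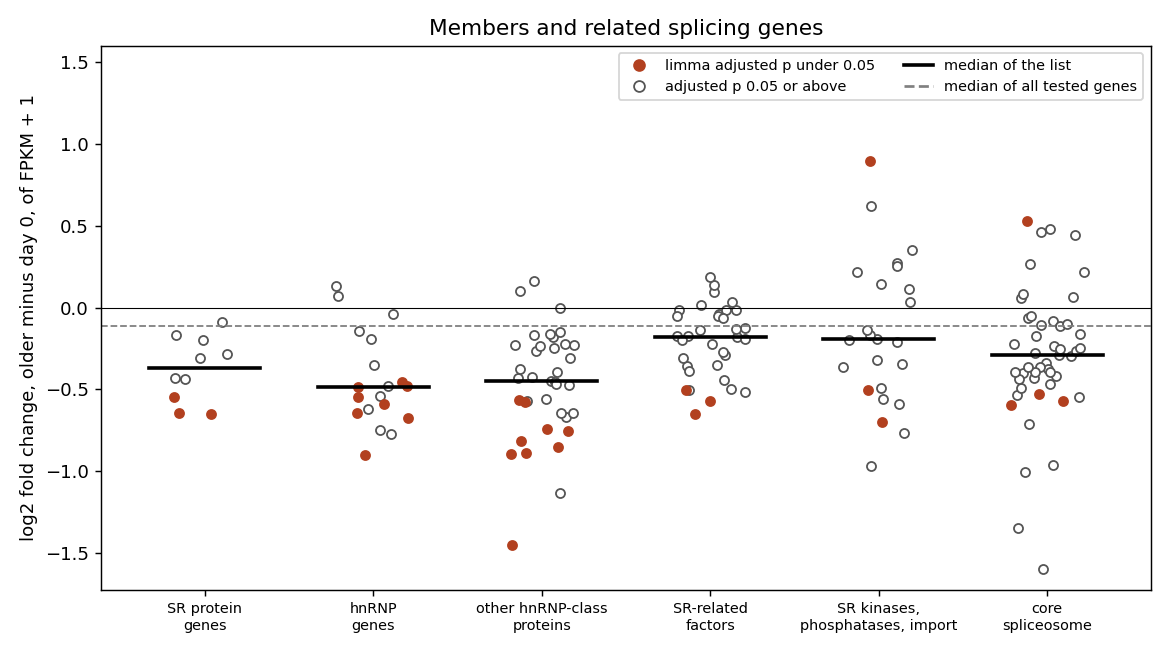
Log2 fold change (older minus day 0, of FPKM + 1) of every tested member and of the tested genes of 4 lists of related genes, filled where limma's adjusted p was under 0.05, with list medians as bars. The medians of the hnRNP genes and of the other hnRNP-class proteins (-0.49 and -0.45) lie below those of the other lists and of all tested genes (dashed, -0.11).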

How the data were processed

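Per the labels' protocols, total RNA from heart tissue was depleted of ribosomal RNA, and SMART cDNA was amplified by PCR. HISAT2, HOMER 4.10 and the genome build rn5 appear in the submitters' processing notes without their roles. The counter, annotation, strand setting and treatment of multiply matching reads are not stated in the labels or headers. No deposited header names the unit of the library columns. The deposited values behave as FPKM, 1 column per input library, since 100% of 16898 genes gave whole reads (relative tolerance 1e-09) from them. Recovery took the smallest whole numbers that fit, so a gene's true reads and length could both be larger by a common factor. Summed over the listed genes, recovered reads made up 99.5% to 99.6% of each library total. No molecular identifiers are named, so PCR copies are counted as reads. The authors' deposited table also gives each gene's log2 fold change, p-value and adjusted p.

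Columns headed 10D were taken as the samples labelled day 7, the only older age in the labels. The members and gene lists were chosen with earlier results of these data known. Values were tested on log2(FPKM + 1) with limma 3.58.1 in R 4.3.3 (lmFit, eBayes with trend, Benjamini-Hochberg over the 13117 genes averaging 1 FPKM or more, 3781 left out). Same-numbered libraries did not deviate together (r = -0.0362, -0.00332 and -0.0499), so no block was used. Members passing the threshold, or without overlap and a log2 fold change of at least 0.5 in size, the 3 highest and 2 lowest of each family and a panel of 11 are given in every library, and up to 4 called genes of each list are named, though not every gene under this rule is reported here. Hnrnpab, Clk1, Srpk3, the ratios and the motifs described were chosen after their values were seen. Alternatives were another pseudocount (0.1), filter, scaling, block, trend, limma voom with TMM scaling on the recovered reads, and leaving out each library. The fit and the read recovery were tested on simulated data. Promoter windows came from RefSeq on GRCr8, and ratios and figures used Python 3.11.15.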

Additional observations from a re-analysis of the deposited data

How the results depend on the processing

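Of the 29 tested members 24 kept the sign of the log2 fold change under all 15 alternatives (14 for Hnrnpc, which had too low a mean for 1 of them), while Hnrnpul1 turned under 5, Srsf7 under 4 and Srsf9, Hnrnpab and Hnrnpul2 under 1 each. The count of 11 members lower (3 SR protein and 8 hnRNP genes) became 4 (0 and 4) with each library centred on its median gene or with quantile normalization, 1 (0 and 1) without the trend, 7 (1 and 6) when scaled to reads outside the mitochondrial protein genes, an alternative added after seeing the data, 8 (3 and 5) with voom, and 13 among genes of at least 5 FPKM, with Hnrnpa2b1 and Hnrnpr added. With 1 library left out it was 2 to 9, with 0 to 2 SR protein and 2 to 7 hnRNP genes. As a replicate block the numbers left 2 members lower (0 SR protein and 2 hnRNP genes), though the libraries share only a number. The cause of these moves was not tested.

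Over all genes the 752 lower and 462 higher became 464 and 617 after centring, 479 and 620.0 with quantile normalization, 697 and 957 with voom, 370.0 and 299 without the trend, 284 and 217 with the replicate block, and 266 to 731 and 167 to 528 with 1 library left out. The share of higher among the called genes was 38.1%, and 57.1% after centring, 56.4% with quantile normalization and 57.9% with voom. The median log2 fold change of all genes was 0.01 after centring and -0.11 as deposited.

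In the related lists the 17 lower and 2 higher became 6 lower after centring or quantile normalization, 4 higher with voom, 2 and 0 without the trend, 1 higher without a filter, and 4 and 0 with the replicate block. With 1 library left out they were 3 to 19 lower and 0 to 1 higher. The median log2 fold change was -0.25 for SR protein and -0.37 for hnRNP genes after centring, -0.25 and -0.37 with voom, -0.26 and -0.36 with quantile normalization, and -0.40 to -0.32 and -0.53 to -0.36 with 1 library left out. Srsf12, with 0 to 12 recovered reads per library, had too few for a test at this depth.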
